A study of Mus musculus with 6 samples.

Results

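The genes of retinoid metabolism described here are Rbp4, Adh1, Rdh10, Dhrs3, Aldh1a1, Aldh1a7, Aldh1a2, Cyp26a1 and Cyp26b1, 9 of the 23415 genes in the authors' table of liver expression. They were chosen by name for what they do with vitamin A. The study compared 3 alkaline sphingomyelinase knockout mice with 3 wildtype mice, all labelled C57BL/6, by RNA sequencing of liver with single-end reads of 50 nt. Alkaline sphingomyelinase, encoded by Enpp7, is an intestinal enzyme that breaks down dietary sphingomyelin. The genotype was read from the letter K or W at the start of the sample names. No other label gives it, and the labels give neither the form of the deleted allele nor the age, sex or feeding state of the animals.

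The table holds 1 value per genotype and not per mouse, in FPKM (reads scaled for transcript length and sequencing depth). The spread between mice could therefore not be seen, and neither the read depth nor an overlap of the groups can be stated. Every ratio below is the log2 of knockout over wildtype, and its standard error (SE) is the error of the authors' model. The words rose and fell are kept for genes whose q, the p-value adjusted over all tested genes, is under 0.05 in the authors' deposited table. Enpp7 was at 0.141 FPKM in knockout and 0.0541 FPKM in wildtype liver and was not tested, so it does not check the genotype labels. The series' design text speaks of intestine where the labels say liver. Hepatocyte transcripts dominated both groups, with 13 markers summing to 48726 FPKM in knockout and 38050 FPKM in wildtype, while the main hepatocyte protein Alb is listed at 0 in both groups with a mark that stands for too many reads in tables of this layout.

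Vitamin A reaches the liver as retinyl esters, is stored mainly in stellate cells, and leaves it as retinol bound to the carrier RBP4, which hepatocytes secrete. Within cells, alcohol and retinol dehydrogenases such as ADH1 and RDH10 turn retinol into retinal, and DHRS3 turns retinal back into retinol. Retinal dehydrogenases of the ALDH1A family then make retinoic acid, the ligand of the retinoic acid receptors. The cytochromes CYP26A1 and CYP26B1 hydroxylate retinoic acid and so remove it, and Cyp26a1 is itself a classic target gene of retinoic acid.

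Cyp26a1 fell to 34.2% of its wildtype level in the knockout livers, and no other gene of the group passed the test. Of the 8 members tested, 1 fell, 0 rose and 7 did not pass. Among all 11515 tested genes 1.08% passed, 0.504% as lower and 0.573% as higher. The median ratio of the 8 tested members was -0.07, against -0.0012 over all tested genes, and it was -0.27 after scaling to equal sums or after quantile normalization. Scaling to equal sums moved every ratio by -0.19, so the median over all tested genes moved with it. Quantile normalization moved the tested genes by a median of -0.0072. In the values as deposited, 6 of the 8 tested members had ratios within 0.35 of 0 in either direction. Ratios in that range are common, since the median absolute ratio over all tested genes was 0.167. The 6 were the genes for carriage, for retinol and retinal turnover and for retinoic acid synthesis. After quantile normalization Rbp4 (-0.87) and Adh1 (-0.38) lay outside that range, so the gap between the Cyp26 genes and the rest depends on the scaling. At an unadjusted p under 0.05 there were 2 members, both lower, where 5.29% of all tested genes reached that level, 2.47% as lower and 2.82% as higher.

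**Figure D1:**
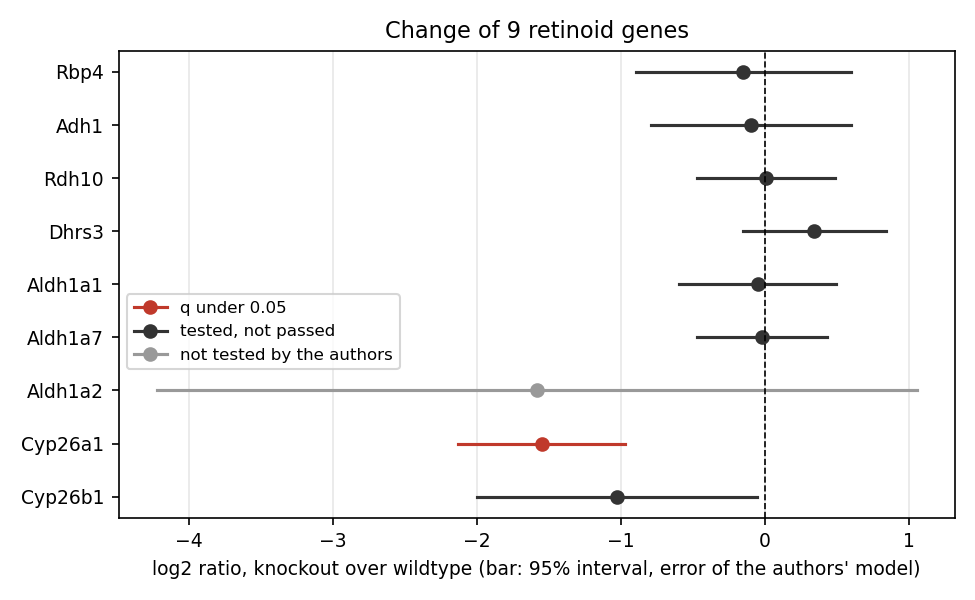
Log2 ratio of knockout over wildtype for the 9 retinoid genes; points are the deposited ratios and bars their 95% intervals from the error of the authors' model. Cyp26a1 lies at -1.55 with a bar from -2.13 to -0.97, Cyp26b1 at -1.03 with a bar that ends at -0.06, and the bars of the 6 other tested genes cross 0.

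Cyp26a1 (mm10, chromosome 19, 37697808 to 37701536, plus strand, a protein-coding gene of 7 exons) encodes the main retinoic acid hydroxylase of liver. It stood at 3.92 FPKM in knockout and at 11.5 FPKM in wildtype livers. The knockout level was thus 34.2% of the wildtype level, with a 95% interval of 22.9% to 51.1%. The log2 ratio was -1.55 ± 0.30 (SE), with q = 5.04e-05 in the authors' deposited table. By size this was the 12th of the 58 falls over all genes, and by p-value Cyp26a1 ranked 38 among the tested genes. It was also the 1 member in the authors' deposited short list of 95 differential genes, in which no absolute log2 ratio is under 1.01. In wildtype livers Cyp26a1 stood at rank 4134 of the listed genes by FPKM, next to Rdh10 at rank 4063, and in knockout livers it stood at rank 7193.

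The stretch just upstream of Cyp26a1 is shown because it holds the kind of element through which retinoic acid receptors act, a direct repeat of a half-site with a spacer of 5 bases. The half-site searched was AGGTCA or AGTTCA or GGGTCA or GGTTCA, on both strands, paired in the same direction with 1, 2 or 5 bases between them, and half-sites could be shared between pairs. Below are the 250 bases before the RefSeq start of Cyp26a1 (GRCm38.p6, chr19:37697558-37697807, plus strand). Beside it is the part around the same element in Rarb, the receptor gene in which this repeat is best known (GRCm38.p6, chr14:16575493-16575549, minus strand). Both are written 5′ to 3′ on the strand of the gene, with the half-sites in capitals.
Cyp26a1: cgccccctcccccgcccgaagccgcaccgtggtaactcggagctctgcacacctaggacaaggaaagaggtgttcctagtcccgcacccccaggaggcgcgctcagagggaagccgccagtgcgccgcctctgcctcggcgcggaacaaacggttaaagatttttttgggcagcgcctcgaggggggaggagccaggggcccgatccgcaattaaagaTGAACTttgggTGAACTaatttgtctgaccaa
Rarb: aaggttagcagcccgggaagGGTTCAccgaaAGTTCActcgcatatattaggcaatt
In Cyp26a1 the repeat spans positions -32 to -16 from the start and is read on the strand opposite to the gene. In Rarb it spans -53 to -37 on the strand of the gene. Such a repeat with 5 bases between the half-sites was found in 32 of 32851 RefSeq promoter windows of 300 bases (0.0974%). Repeats with 1 and with 2 bases between them were found in 0.222% and 0.268%, whereas a single half-site occurs in 43.7% of the windows. Windows were found for 8 of the 9 members, 12 in all, and those of the members other than Cyp26a1 held none of the 3 repeats. The windows of Lrat and Cyp26c1 were searched as well and also held none. A match describes the letters and not a bound receptor.

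Cyp26b1 (chromosome 6, 84571414 to 84593908, minus strand), the other retinoic acid hydroxylase, was the lowest tested member. It stood at 0.696 FPKM in knockout and at 1.42 FPKM in wildtype livers, a log2 ratio of -1.03 ± 0.50. It did not pass, with p = 0.0381 and q = 0.847 in the authors' deposited table. Its 95% interval runs from 25.0% to 96.2% of the wildtype level and so holds the 34.2% of Cyp26a1: these values do not show that the Cyp26 genes differ in response. With that error a 3.29-fold difference would have been needed for a call, against 2.03-fold for Cyp26a1. With a pseudocount of 1 the ratio of Cyp26b1 was -0.51. Cyp26a1 exceeded Cyp26b1 8.07-fold in wildtype and 5.63-fold in knockout livers, and together they summed to 12.9 FPKM in wildtype and 4.62 FPKM in knockout. The coding sequences of the pair are 60.2% identical, and no stretch of 50 bases of either transcript occurs in a transcript of another gene, so reads of this length need not have been shared between them.

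The other genes that can clear retinoic acid did not pass. Cyp26c1, the remaining gene of the family, was at 0.142 FPKM in knockout and 0.245 FPKM in wildtype livers and was not tested. Of the 8 listed genes of this role, which include cytochromes of the 2c and 3a families and UDP-glucuronosyltransferases, 5 were tested, 0 passed, and 0 had an unadjusted p under 0.05. Their median ratio was -0.27, with 4 ratios below 0. Cyp3a13 had the smallest p of them, at 51.4 FPKM in knockout and 41.3 FPKM in wildtype, a ratio of 0.32 ± 0.23.

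None of the tested genes around Cyp26a1 fell with it. The start of Cyp26c1 lies at -12.1 kb from that of Cyp26a1, and the nearer end of Rbp4 lies 415 kb beyond the end of Cyp26a1. Of 15 other genes that reach within 500 kb of Cyp26a1, 8 were tested and 0 passed in the authors' deposited table, where 1.08% of all genes did. Their ratios ran from -0.21 to 0.54, all above the upper end of the interval of Cyp26a1. The highest was that of Hhex, a homeobox factor of liver development, at 83.2 FPKM in knockout and 57.3 FPKM in wildtype, and it had the 1 unadjusted p under 0.05 (p = 0.0180, q = 0.572 in the authors' deposited table).

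**Figure D2:**
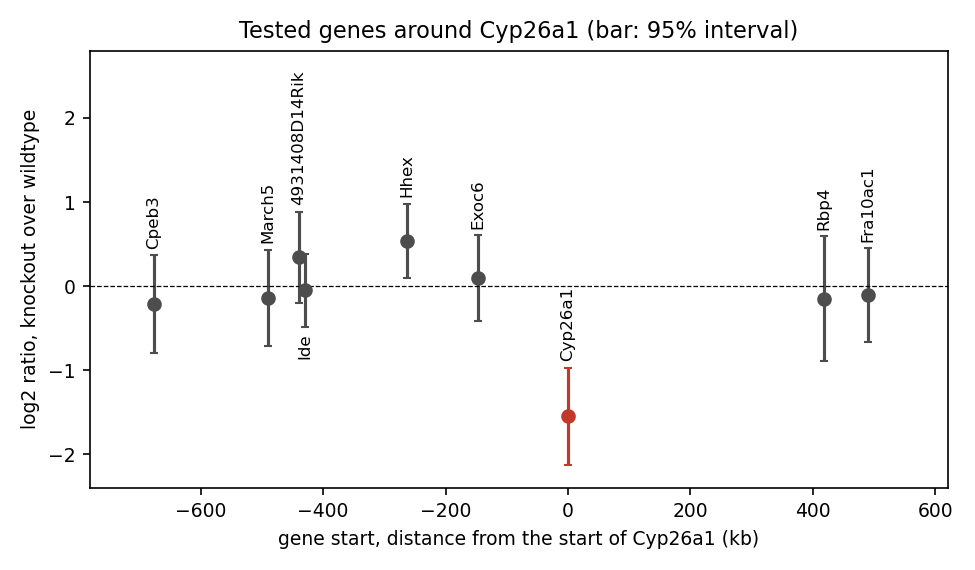
Log2 ratio of knockout over wildtype of the tested genes that reach within 500 kb of Cyp26a1, by the distance of their start from that of Cyp26a1 in kb. Start here means the lowest coordinate, on either strand. Bars are 95% intervals from the error of the authors' model. Cyp26a1 at -1.55 lies below the 8 neighbours, which lie between -0.21 and 0.54.

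Rbp4 (chromosome 19, 38116620 to 38125321, minus strand), the retinol carrier of plasma, was the most abundant member. Its level was 3449 FPKM in knockout and 3828 FPKM in wildtype livers, rank 23 and rank 14 of all listed genes. The ratio was -0.15 ± 0.38, with q = 1.00 in the authors' deposited table. The knockout level was 90.1% of wildtype, with a 95% interval of 53.7% to 151%, and at this error a 2.49-fold difference would have been needed for a call. The ratio was -0.35 after scaling to equal sums and -0.87 after quantile normalization, with recomputed q of 0.838 and 0.638, and it passed under neither. Ttr, transthyretin, which carries the loaded RBP4 in plasma, was at 6867 FPKM in knockout and 7229 FPKM in wildtype (-0.07 ± 0.52). Plasma transport proteins whose output falls in inflammation, a list of 11 genes with Ttr among them, had 10 tested members, of which 0 passed and 0 had an unadjusted p under 0.05, with a median ratio of 0.24. Serpina7, the thyroxine-binding globulin, had the smallest p of them (0.27 ± 0.27).

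Genes for the uptake, storage and release of retinoids lay on both sides of 0. Of 21 listed genes 19 were tested. Among these 1 fell, 0 rose and 18 missed the threshold, where 0.504% of all tested genes fell and 0.573% rose. At an unadjusted p under 0.05, 2 of the 19 were lower and 2 higher, where 2.47% of all tested genes were lower and 2.82% higher. The median ratio of the 19 was 0.07. The gene that fell was Ces1d, a carboxylesterase that hydrolyses triglycerides and retinyl esters, at 211 FPKM in knockout and 403 FPKM in wildtype (-0.93 ± 0.26, q = 0.0428 in the authors' deposited table). Its q was 0.0644 when untested genes with a p-value were included in the adjustment. Lrat, which esterifies retinol for storage in stellate cells, was at 2.28 against 3.56 FPKM, knockout first (-0.64 ± 0.28, p = 0.0214 and q = 0.631 in the authors' deposited table). Stra6l, listed under its older name 1300002K09Rik, is the liver receptor for RBP4 and was at 47.0 against 29.6 FPKM (0.67 ± 0.23, p = 0.00321 and q = 0.181 in the authors' deposited table). Stra6, the receptor for RBP4 in other tissues, was listed at 0 FPKM in knockout and at 0.00935 FPKM in wildtype.

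**Figure D3:**
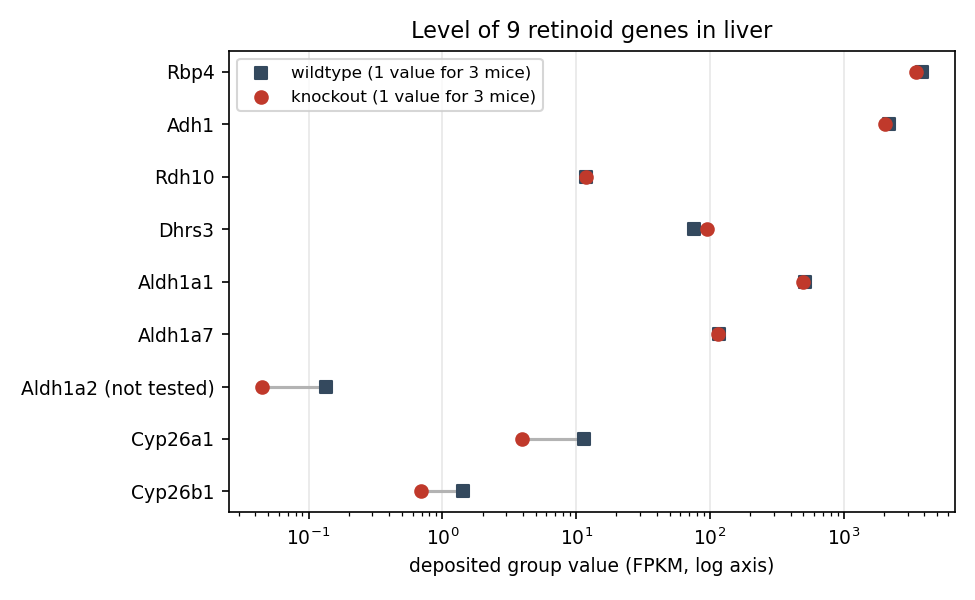
Deposited group values of the 9 retinoid genes in FPKM on a log axis; circles are the knockout group and squares the wildtype group, each 1 value for 3 mice, and grey lines join the pair. Values run from 0.0449 FPKM for Aldh1a2 to 3828 FPKM for Rbp4, and the pairs of Aldh1a2, Cyp26a1 and Cyp26b1 are the ones visibly apart.

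The order of the levels was the same in both groups, from Rbp4 through Adh1, Aldh1a1, Aldh1a7, Dhrs3, Rdh10, Cyp26a1 and Cyp26b1 down to Aldh1a2. No error of a single level is given, so neighbours such as Rdh10 and Cyp26a1 in wildtype livers, at 11.8 and 11.5 FPKM, cannot be put in order beyond their values.

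Adh1 and Rdh10, which oxidise retinol to retinal, had nearly equal deposited levels in both groups. Adh1 (chromosome 3, 138277645 to 138290691, plus strand), a broad alcohol dehydrogenase of hepatocytes, was at 2030.2 FPKM in knockout and 2172 FPKM in wildtype livers. Its ratio was -0.10 ± 0.36, with an interval from -0.79 to 0.60, and it was -0.29 after scaling to equal sums and -0.38 after quantile normalization. Rdh10 (chromosome 1, 16105882 to 16132550, plus strand), a microsomal retinol dehydrogenase, was at 11.8 FPKM in both groups, a ratio of 0.01 ± 0.24 with an interval from -0.47 to 0.48. Changes beyond 1.79-fold in Rdh10 and 2.35-fold in Adh1 would have been called at these errors. The interval of neither gene reaches the ratio of Cyp26a1.

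Dhrs3 (chromosome 4, 144892827 to 144927645, plus strand), a retinal reductase that works against RDH10 and is itself induced by retinoic acid in many cells, had the highest ratio of the tested members. It was at 95.7 FPKM in knockout and 75.5 FPKM in wildtype livers (0.34 ± 0.25), and did not pass, with p = 0.176 and q = 1.00 in the authors' deposited table. Its value lay on the other side of 0 from Cyp26a1, and its interval, from -0.15 to 0.84, lies wholly above that of Cyp26a1. Dhrs3 exceeded Rdh10 6.42-fold in wildtype and 8.11-fold in knockout livers.

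Of 23 other dehydrogenases and reductases listed for retinol and retinal, 21 were found, 15 were tested, and 0 passed. Their median ratio was 0.03, with 9 ratios above 0 and 6 below. Rdh16, a microsomal retinol dehydrogenase of liver, had the smallest p, at 11.8 FPKM in knockout and 18.2 FPKM in wildtype (-0.62 ± 0.23, p = 0.00648 and q = 0.292 in the authors' deposited table). After scaling of the groups to equal sums over all genes it passed as lower (q = 0.0256). The most abundant were Rdh7 at 695 against 633 FPKM and Adh5 at 308 against 314 FPKM, knockout first.

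The abundant retinal dehydrogenases, which make retinoic acid, lay close to the same level in both groups. Aldh1a1 (chromosome 19, 20601982 to 20643462, plus strand), the main retinal dehydrogenase of adult liver, was at 495 FPKM in knockout and 512 FPKM in wildtype, a ratio of -0.05 ± 0.28. Aldh1a7 (chromosome 19, 20692953 to 20727556, minus strand), a rodent copy of it, was at 116 FPKM in knockout and 117 FPKM in wildtype, a ratio of -0.02 ± 0.23. The nearer end of Aldh1a7 lies 49.5 kb beyond the end of Aldh1a1. Neither passed, with q = 1.00 for both in the authors' deposited table. The interval of Aldh1a1 runs from 66.2% to 141% of wildtype and that of Aldh1a7 from 71.9% to 135%. Aldh1a2 (chromosome 9, 71215789 to 71296243, plus strand), which makes retinoic acid in the embryo and in mesothelium, was at 0.0449 FPKM in knockout and 0.135 FPKM in wildtype, too low to be tested. Its ratio of -1.59 ± 1.35 is little larger than its error.

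The coding sequences of Aldh1a1 and Aldh1a7 are 91.6% identical, against 68.8% for Aldh1a1 and Aldh1a2. Of the stretches of 50 bases in the longest coding transcript of Aldh1a1, 6.54% occur unchanged in an Aldh1a7 transcript, and 7.49% of those of Aldh1a7 occur in an Aldh1a1 transcript. Most stretches thus tell the pair apart, but the sources used here do not say how shared reads were counted, so the single values of the pair are uncertain to that extent. Aldh1a1 exceeded Aldh1a7 4.36-fold in wildtype and 4.28-fold in knockout livers. The level of Aldh1a1 exceeded that of Cyp26a1 44.6-fold in wildtype and 126-fold in knockout livers.

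Among 9 other aldehyde-oxidising enzymes, 8 were tested, 1 fell and 0 rose, where 0.504% of all tested genes fell and 0.573% rose. The median ratio of the 8 was -0.14. The gene that fell was Aldh3a2, the fatty aldehyde dehydrogenase, which acts on lipid aldehydes and not chiefly on retinal. It was at 51.5 FPKM in knockout and 94.1 FPKM in wildtype (-0.87 ± 0.23, q = 0.0172 in the authors' deposited table). Aldh8a1, which acts on retinal, was at 154 against 152 FPKM, and Aldh1a3, the remaining family member, was at 0.0559 against 0.0887 FPKM and not tested.

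**Figure D4:**
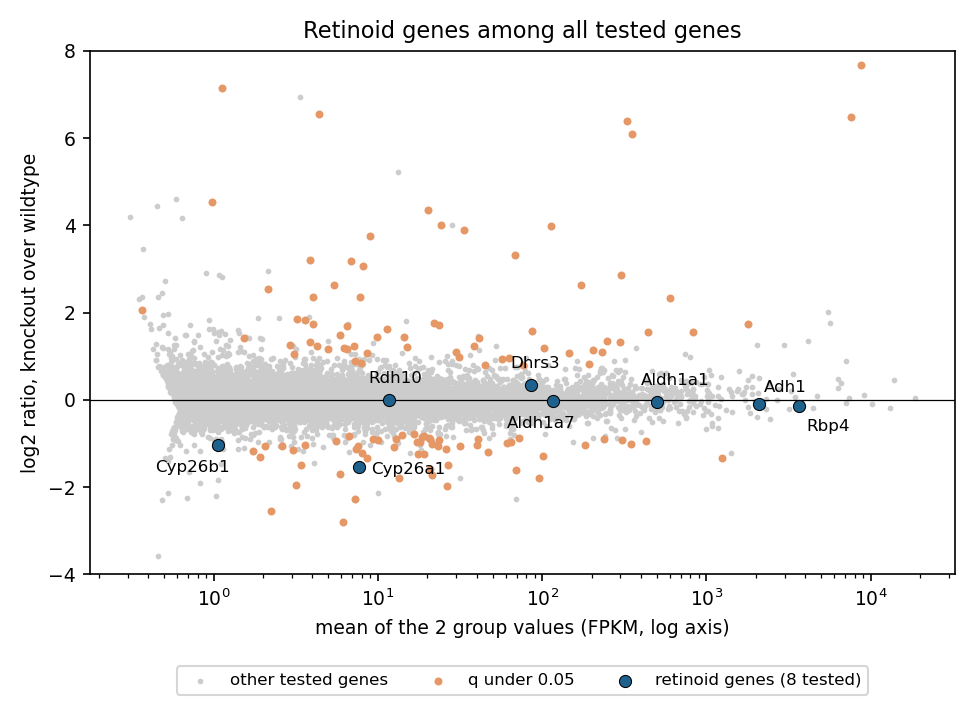
Log2 ratio of knockout over wildtype against the mean of the group values in FPKM (log axis) for the tested genes; grey points did not pass, orange points passed q under 0.05, and blue points are the 8 tested retinoid genes. Cyp26a1 lies among the genes that passed as lower, Cyp26b1 near the low end of the expression range, and the other 6 near 0; 2 tested genes with ratios outside -4 to 8 are not drawn, nor are the 59 without a finite ratio.

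Of the receptors that retinoic acid binds, Rara was at 9.25 FPKM in knockout and 8.63 FPKM in wildtype, and Rarg at 2.57 and 2.68 FPKM. Rarb, whose own gene is a retinoic acid target, was at 1.06 FPKM in knockout and 1.91 FPKM in wildtype (-0.85 ± 0.39). It did not pass, with p = 0.0298 and q = 0.750 in the authors' deposited table. Their partner Rxra was at 94.9 FPKM in knockout and 90.2 FPKM in wildtype livers. Of 19 receptors, binding proteins and cofactors 16 were tested, 1 rose and 0 fell, where 0.573% of all tested genes rose and 0.504% fell. At an unadjusted p under 0.05, 1 of the 16 was lower and 2 were higher, where 2.47% of all tested genes were lower and 2.82% higher. The median ratio of the 16 was -0.07. The gene that rose was Fabp5, a lipid chaperone that carries fatty acids and can carry retinoic acid, at 198 FPKM in knockout and 93.3 FPKM in wildtype (1.08 ± 0.28, q = 0.0144 in the authors' deposited table). It did not pass after scaling to equal sums (q = 0.0780). The retinoic acid carriers Crabp1 and Crabp2 are listed at 0 in both groups.

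Known target genes of retinoic acid other than the members lay on both sides of 0. Of 18 listed 10 were tested, 0 passed, and 4 had an unadjusted p under 0.05 in the authors' deposited table, where 5.29% of all genes did. The lower ones were Rarb and Lrat, as given above. Of the 2 higher ones, Tgm2, a transglutaminase, was at 62.2 FPKM in knockout and 42.7 FPKM in wildtype (0.54 ± 0.23). The median ratio of the list was -0.08. Pck1, the gluconeogenic enzyme, was at 1082 against 1180.2 FPKM, knockout first, and the hepatokine Fgf21 was at 0.460 against 0.659 FPKM and not tested. Rarb, Lrat and several other genes, Ttr and Pck1 among them, stand on more than 1 of the lists.

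**Figure D5:**
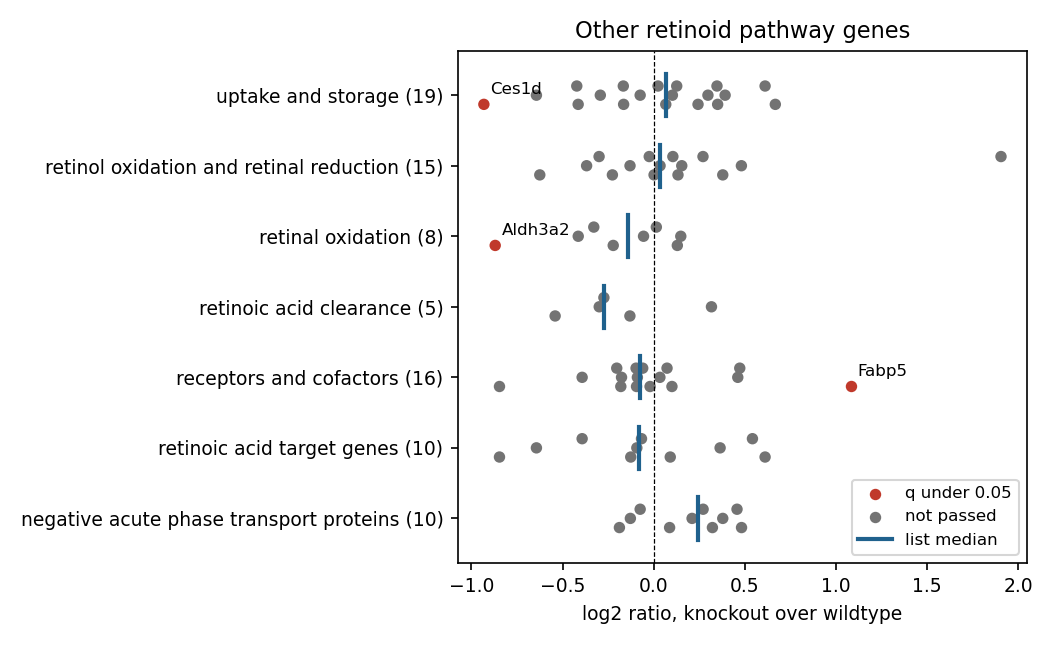
Log2 ratio of knockout over wildtype for the tested genes of the 7 pathway lists, with the number tested in brackets; each point is a gene, red where q is under 0.05, and the blue bar is the list median. Ces1d and Aldh3a2 lie at the lower end of their lists and Fabp5 at the upper end, and every list median lies between -0.27 and 0.24.

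Markers of the cells that hold these genes were compared as well, since in whole liver fewer cells of a type and less RNA per cell cannot be told apart. Cyp26a1 and Aldh1a1 are known from hepatocytes, Cyp26a1 from those around the central vein. Of 15 pericentral markers, all tested, 0 passed and 0 had an unadjusted p under 0.05. They summed to 6384 FPKM in knockout and 7045 FPKM in wildtype, with a median ratio of -0.15 and 11 ratios below 0. Tbx3, a transcription factor of these cells, had the smallest p (-0.51 ± 0.29). The 15 periportal markers held 0 that passed and summed to 4644 and 5257 FPKM, with Ctsc, a lysosomal protease, at the smallest p (0.70 ± 0.23). At an unadjusted p under 0.05 there were also 2 lower ones, where 2.47% of all tested genes were lower. These 2 were Asl, a urea cycle enzyme (-0.73 ± 0.26), and Etnppl, listed as Agxt2l1 (-0.63 ± 0.23). After scaling to equal sums 2 of the 15 periportal markers passed as lower. That scaling moved every ratio by -0.19. Under it 140 of all 11515 tested genes passed as lower, against 58 before. Cyp26a1 had a lower ratio than any marker on either list. The part of pericentral cells in its fall was not tested.

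Of 18 markers of stellate cells and fibroblasts, the cells that store retinyl esters, 17 were tested and 0 passed. At an unadjusted p under 0.05, 3 were lower and 0 higher, where 2.47% of all tested genes were lower and 2.82% higher. The 18 markers summed to 158 FPKM in knockout and 189 FPKM in wildtype, with a median ratio of -0.12 and 14 ratios below 0. Reln, reelin, had the smallest p (-0.69 ± 0.24). After scaling to equal sums 1 of the markers passed as lower, where 140 of all 11515 tested genes did. Lrat is itself 1 of the 18 markers and 1 of the 3 lower ones. The part of stellate cells and fibroblasts in the lower values of Lrat and Cyp26b1 was not tested. The 12 sinusoidal endothelium markers summed to 152 and 162 FPKM, 0 passed, and Ehd3 had the smallest p (-0.54 ± 0.23). Of 6 mesothelial markers found, 1 was tested, Krt19, at 3.26 and 3.04 FPKM, and the list summed to 4.21 and 4.53 FPKM. Of the untested ones, Upk3b was at 0.194 and 0.646 FPKM, Lrrn4 at 0.0229 and 0.124 FPKM, and Msln at 0.261 and 0.356 FPKM. Wt1 was at 0.0518 and 0.0527 FPKM, and Gpm6a was higher in knockout, at 0.426 and 0.318 FPKM. These levels are too low to show whether mesothelial transcripts differed.

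Transcripts that mark inflammatory cells were more abundant in knockout liver. Of 12 neutrophil markers found 10 were tested and 4 rose, where 0.573% of all tested genes rose. The list summed to 110.4 FPKM in knockout and 6.75 FPKM in wildtype livers. S100a9 had the smallest p (4.01 ± 0.50). Of 12 Kupffer cell and macrophage markers 2 rose, and the list summed to 529.7 and 336 FPKM, with Marco at the smallest p (1.24 ± 0.32). After scaling to equal sums 0 of these 12 passed. Their part in the fall of Cyp26a1 was not tested. None of 13 hepatocyte markers passed among 12 tested, and Fgb, a fibrinogen chain, had the smallest p (1.35 ± 0.58). Intestinal markers summed to 193 and 188 FPKM, and 0 of 10 tested passed. Tff3 had the smallest p (1.03 ± 0.31, q = 0.0775 in the authors' deposited table). The median ratio of the list was 0.67, with 7 ratios above 0 and 3 below. At an unadjusted p under 0.05, 3 intestinal markers were higher and 0 lower, where 2.82% of all tested genes were higher. The transcription factors that define intestinal epithelium, Cdx1 and Cdx2, were below 0.05 FPKM in both groups. Adipose markers summed to 18.0 and 18.7 FPKM, with 2 tested and 0 passed, Cfd having the smallest p, and Adipoq was listed at 0 in knockout and 0.0611 FPKM in wildtype.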

How the data were processed

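Liver RNA of 3 knockout and 3 wildtype mice was sequenced. Per the submitters' processing notes, reads were handled with Bowtie2 and the build was mm10; the sources used here name no program for the tables. The authors deposited 1 table of all genes with 1 value per group, and a short list. The unit is not named in the headers; the layout is that of a Cuffdiff table, so the deposited values were taken as FPKM. Per the file headers, the authors' log2 ratio sets wildtype over knockout; its sign was changed. The deposited test statistic is a score that matches a standard normal z of their p-value to within 2.63e-06, and the deposited q-value is the Benjamini-Hochberg adjustment over 11515 tested genes. The SE is the ratio divided by that score, and intervals are at 95%.

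No value per mouse was used here, so the authors' test stands and read depth is unknown. Of the tested genes, 59 were at 0 in 1 group and have no finite ratio. Starts have 1 added, since the deposited starts count from 0. The table holds 0 columns of other series. The members and the 7 pathway and 10 marker lists were chosen with earlier results of these data known. Of the list genes, 4 were matched by an older symbol and 5 entries were not found. Of each pathway list the genes that passed, and of every list the one with the smallest p, were named by rule, with 1 left out. Other non-members were named after their values were seen. The values of 1 list gene are not reported here, though it stays in the counts. Promoters come from RefSeq (GRCm38.p6), transcripts and exons from GENCODE M21 (GRCm38); stretches were matched exactly. The recalculation of q was tested on simulated data. Python 3.11.15, pandas 2.3.3 and scipy 1.17.1 were used.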

Additional observations from a re-analysis of the deposited data

How the results depend on the processing

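Cyp26a1 passed as lower under 3 scalings (same sum, median centring, quantile normalization) and 2 filters on the genes tested (a mean of at least 1 FPKM, or none), with log2 ratios from -1.74 to -1.55; with pseudocounts of 0.5 and 1 the ratio was -1.44 and -1.34. No other member passed under any of these, and at an unadjusted p under 0.05 there were 2 lower members in place of 1, the looser threshold adding Cyp26b1. Scaling to equal sums moved every ratio by -0.19 and the calls over all genes from 58 lower and 66 higher to 140 lower and 49 higher. At an unadjusted p under 0.05, 284 were lower and 325 higher. Under the same-sum scaling the sign turned for Rdh10 (-0.19, q = 0.867) and for the medians of uptake and storage (-0.13), retinol oxidation and retinal reduction (-0.16), hepatocyte (-0.15) and mesothelium markers (-0.093). Quantile normalization turned the medians of the negative acute phase transport proteins (-0.21) and of the hepatocyte markers (-0.24); the cause was not tested. Leaving out each mouse in turn was not run, for want of values per animal. No paired analysis was possible because the 2 groups share no animal number and each has 1 pooled value. At the errors of the authors' model, differences smaller than the fold given beside a member could not be called. For Dhrs3, Aldh1a1 and Aldh1a7 that fold was 1.84, 1.95 and 1.74.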
